A study of Mus musculus with 12 samples.

Results

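The 10 genes described here are St3gal1, St3gal2, St3gal4, St3gal6, St6gal1, Neu1, Neu3, Gne, Cmas, and Slc17a5, which build, activate, attach, remove, or transport sialic acid. They were chosen by name and function, with earlier results of these data known, out of 43626 genes in the deposited tables. Counts of called members below therefore describe these genes and are no test of the set. All 10 were among the 14308 genes with enough reads for testing. The data were RNA-Seq read counts from BMDMs, which are macrophages grown in culture from mouse bone marrow, in 12 libraries. The 4 groups of 3 libraries were untreated BMDMs (PBS), BMDMs given 100 μg/mL of 3′SL, BMDMs given 10 ng/mL of LPS, and BMDMs given both at these doses (LPS + 3′SL), with RNA taken after 6 hours. LPS, from the envelope of gram-negative bacteria, is a ligand of TLR4. The sugar 3′SL is a lactose from human milk that itself carries a sialic acid. The labels call 3′SL by the general abbreviation HMO, describe injections of mice as the treatment, and give no strain, sex, or age for these libraries, so doses and hours were taken from the study's methods. Nothing in the labels says that the 3 libraries of a group came from separate mice or cultures, and the p-values below then measure only the spread between these libraries.

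Sialic acid is made in the cytosol, activated to CMP-sialic acid in the nucleus, carried into the Golgi, and placed there on the ends of glycans by sialyltransferases, each of which prefers certain acceptors and forms 1 type of linkage. Sialidases remove it again at the cell surface and in lysosomes, and sialin, encoded by Slc17a5, lets the freed sugar out of the lysosome. On macrophages, sialylated glycans mask underlying galactose and are ligands for the Siglec family of receptors.

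The counts on genes ranged from 20411741 to 26851890 reads per library (median 23375851). Beyond their condition, libraries clustered as 3 sets, in each of which the 4 conditions occur once. These are runs of consecutive label numbers, called library sets 1, 2, and 3 here, and replicate numbers of libraries are those of their sets. With condition means removed, residuals of libraries from the same set correlated at 0.60 on average, and those from different sets at -0.35. The LPS-responsive genes used to check the labels, among them Il6 and Nos2, were higher in all 6 libraries with LPS. Summed macrophage markers (8 of 8 with reads) ran from 17640 to 24209 CPM without LPS and from 24694 to 30044 CPM with it. Here CPM is the read count scaled to a common library size with TMM factors. Lyz2, at 12155 to 15730 CPM, was the largest part of this sum. Cd68 and Csf1r overlapped between LPS and PBS, whereas Adgre1, Itgam, Lyz2, Mertk, Fcgr1, and Cd14 were higher in every LPS library. Granulocyte markers (6 of 6 with reads) summed to between 77.0 and 313 CPM without LPS and between 116 and 553 CPM with LPS, and their sums were highest in set 3 (173 to 553 CPM). Stromal markers (6 of 6 with reads) summed to between 525 and 611 CPM in set 1 against at most 96.2 CPM in the other sets. Dendritic cell markers (4 of 4 with reads) summed to at most 2.23 CPM without LPS and between 5.52 and 15.5 CPM with LPS. Of these, Xcr1 (at most 1.79 CPM without and at least 4.50 CPM with LPS) and Clec9a (at most 0.202 and at least 0.533 CPM) were apart, whereas Flt3 and Zbtb46 overlapped and reached at most 0.429 and 1.32 CPM. Lymphocyte markers stayed below 0.912 CPM, with Cd3e at 0 reads. The part of these other cells in the results below was not tested, and in RNA from whole cultures fewer cells of a type and less RNA per cell cannot be told apart.

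Promoter windows from RefSeq (GRCm38.p6, from 250 bases before to 50 bases after a start) were found for 8 of the 10 genes, as 12 windows. St3gal1 and St3gal2 had none. The windows below belong to the members with the largest rise and fall for LPS against PBS (St3gal6 and St6gal1) and to 1 further member that rose (St3gal4) and 1 that fell (Cmas), so that their sequences can be compared. Capitals mark matches on either strand to the NF-kB-like letters (GGG, 5 bases of any kind, and CC) and, in St6gal1, to the AP-1-like letters TGANTCA, and some matches overlap.
St6gal1, chr16:23290220-23290519, plus strand: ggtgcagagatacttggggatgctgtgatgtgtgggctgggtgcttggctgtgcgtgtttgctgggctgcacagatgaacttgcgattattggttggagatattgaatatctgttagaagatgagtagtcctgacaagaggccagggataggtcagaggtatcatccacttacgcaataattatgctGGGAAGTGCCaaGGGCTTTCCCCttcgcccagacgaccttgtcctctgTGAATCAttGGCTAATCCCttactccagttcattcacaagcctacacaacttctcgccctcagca
St3gal6, chr16:58523377-58523676, minus strand: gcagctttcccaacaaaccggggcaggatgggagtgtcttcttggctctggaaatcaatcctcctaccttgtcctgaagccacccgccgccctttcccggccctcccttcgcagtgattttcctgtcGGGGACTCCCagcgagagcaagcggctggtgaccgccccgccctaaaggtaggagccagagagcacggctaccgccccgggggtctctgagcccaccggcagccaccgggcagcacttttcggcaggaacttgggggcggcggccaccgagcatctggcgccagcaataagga
St3gal4, chr9:35116815-35117114, minus strand: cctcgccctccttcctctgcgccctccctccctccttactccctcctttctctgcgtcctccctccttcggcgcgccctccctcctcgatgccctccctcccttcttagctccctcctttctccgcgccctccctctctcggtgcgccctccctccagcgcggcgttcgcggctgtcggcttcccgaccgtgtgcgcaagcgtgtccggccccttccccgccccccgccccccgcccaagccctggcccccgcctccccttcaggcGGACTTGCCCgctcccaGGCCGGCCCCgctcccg
Cmas, chr6:142756436-142756735, plus strand: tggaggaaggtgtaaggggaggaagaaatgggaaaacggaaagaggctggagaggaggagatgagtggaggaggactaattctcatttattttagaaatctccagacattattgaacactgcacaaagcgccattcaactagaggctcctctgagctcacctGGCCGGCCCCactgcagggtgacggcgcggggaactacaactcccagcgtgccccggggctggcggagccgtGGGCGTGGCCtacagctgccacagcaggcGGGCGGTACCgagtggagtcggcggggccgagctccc
The NF-kB-like letters were in 8 of the 12 windows and in at least 1 window of all 8 genes, and 50.8% of 32851 mouse promoter windows of this length hold them. That share is per window and not per gene. The letters are rich in G and C. The printed windows of St3gal4, St3gal6, Cmas, and St6gal1 had 74.0%, 64.7%, 60.0%, and 49.7% GC, against a median of 52.7% over all windows. With each strand counted, the printed St6gal1 window had 5 NF-kB-like matches and 1 AP-1-like match. The windows of St3gal6 and St3gal4 had 2 NF-kB-like matches each and that of Cmas had 3. The 2 matches of St3gal6 are the same bases read on both strands, and some of the 5 of St6gal1 overlap. Those of St3gal4 and Cmas are separate. Counted as separate stretches, St6gal1 had no more NF-kB-like matches than Cmas, and St3gal6 had fewer than St3gal4. Of the 3 windows of St6gal1 and the 2 of St3gal6, the printed one, picked with the matches known, is the only one that holds any, and the others had 0. AP-1-like letters occurred in 2 of the 12 windows, those of St6gal1 and Neu1, against 7.81% of all windows. The ISRE-like letters (GAAA, 2 bases of any kind, and GAAA) were in 0 of the 12 windows and in 3.44% of all windows. Genes that rose and genes that fell thus both carried the NF-kB-like letters, and a match describes the sequence only.

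The first question was how LPS changed the sialic acid genes of quiescent BMDMs. LPS raised 3 sialyltransferases, St3gal1, St3gal4, and St3gal6, by 2.56- to 3.12-fold, and lowered St6gal1 by 7.32-fold. It also lowered Gne and Cmas, which make and activate sialic acid, and Slc17a5, by 2.14- to 2.80-fold. In all, 7 of the 10 members passed the threshold (a Benjamini-Hochberg adjusted p under 0.05 in edgeR's quasi-likelihood test and a change of at least 1.5-fold), 3 higher and 4 lower, while 38.5% of all genes tested passed it (18.3% higher and 20.2% lower). The median log2 fold change was -0.40 over the 10 members and -0.06 over all genes. When libraries were scaled by total counts instead, the median of all genes lay at -0.71, and all genes split into 1535 higher and 6657 lower, against 2613 and 2889 with TMM factors. With that scaling 9 members passed, beside 57.3% of all genes, with Neu1 and St3gal2 in addition, and the 7 called members kept their direction. Their sizes depended on the scaling. The rises became smaller, at log2 fold changes of 0.89 (St3gal1), 0.67 (St3gal4, adjusted p = 0.0469, edgeR), and 0.99 (St3gal6). The falls became larger, at -3.52 (St6gal1), -2.11 (Gne), -1.84 (Cmas), and -1.75 (Slc17a5).

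**Figure D1:**
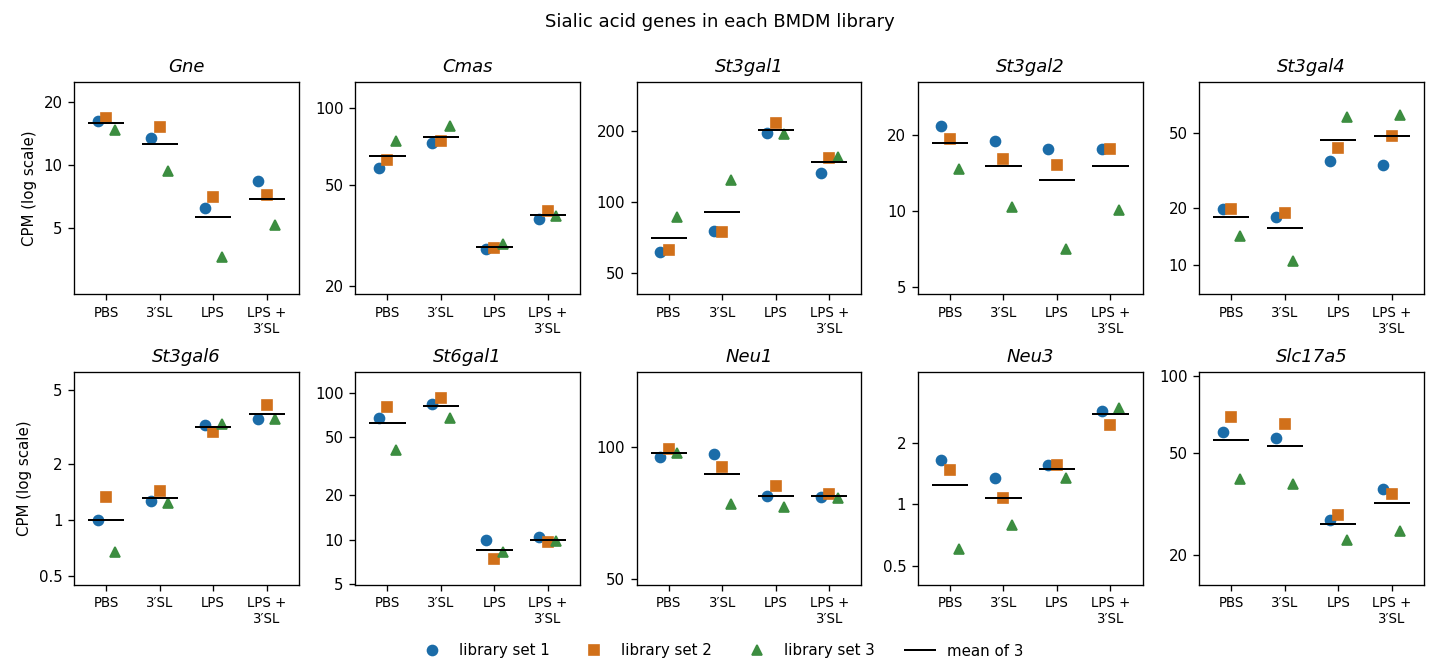
CPM of the 10 genes in each library on log axes, by condition, with symbols for the 3 library sets and a line at the mean of 3 libraries. St6gal1 lies at 40.7 CPM or more in every library without LPS and at 10.3 CPM or less in every library with LPS, while St3gal1, St3gal4, and St3gal6 are higher in every library with LPS than in any without it.

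**Figure D2:**
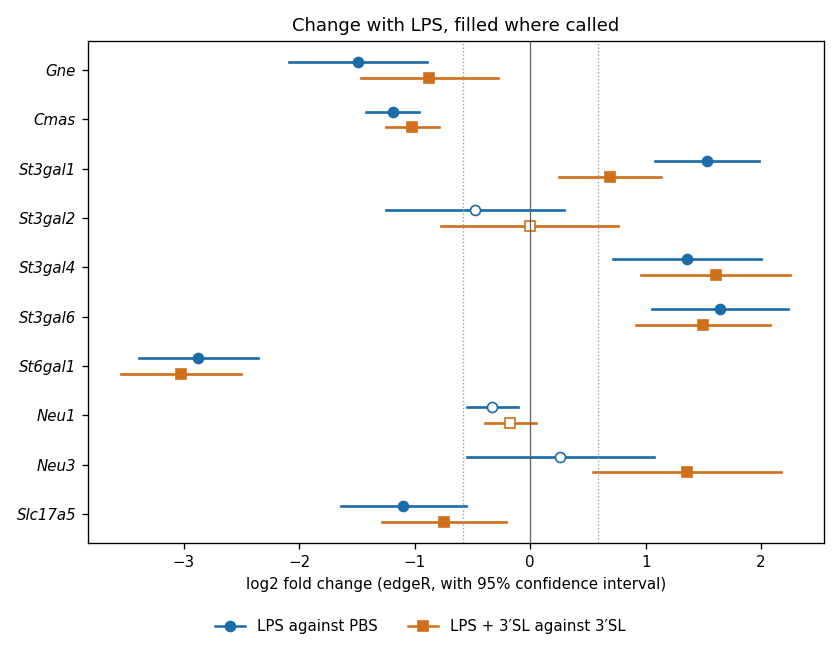
Log2 fold change of the 10 genes with LPS, alone against PBS and in the presence of 3′SL against 3′SL, with 95% confidence intervals from the edgeR fit, filled symbols for genes called, and dotted lines at 1.5-fold. The points of St6gal1 lie at -2.87 and -3.02, and those of St3gal4 and St3gal6 between 1.36 and 1.64.

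Gne encodes the bifunctional epimerase and kinase that starts sialic acid synthesis and is its rate-limiting enzyme. The Gne level was 16.1, 16.7, and 14.7 CPM in PBS libraries of sets 1, 2, and 3, and 6.25, 7.02, and 3.62 CPM with LPS. Every LPS library was below every PBS library, and Gne fell by 1.49 on the log2 scale (SE 0.27, adjusted p = 0.00107, edgeR's quasi-likelihood test). Within the library sets its log2 ratios were -1.37, -1.25, and -2.02.

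Cmas encodes the enzyme that activates sialic acid to CMP-sialic acid, the donor of all sialyltransferases. Its level was 58.1, 62.5, and 74.3 CPM with PBS and 28.0, 28.2, and 29.2 CPM with LPS. The LPS libraries lay close together and well below all PBS libraries. Cmas fell by 1.19 on the log2 scale (SE 0.10, adjusted p = 7.75e-06, edgeR), with log2 ratios of -1.05, -1.15, and -1.35 within the sets.

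St3gal1 (chr15:67102875-67176830 in GRCm38) caps the core galactose of O-glycans with sialic acid. Its level rose from 60.8, 62.2, and 86.3 CPM with PBS to 196, 215, and 193 CPM with LPS, with no overlap. The log2 fold change was 1.53 (SE 0.20, adjusted p = 0.000127, edgeR), and the within-set values were 1.69, 1.79, and 1.16. St3gal2 (chr8:110919922-110972480), which acts on O-glycans and gangliosides, was measured at 21.8, 19.4, and 14.7 CPM with PBS and at 17.7, 15.3, and 7.06 CPM with LPS. These ranges overlapped, and its log2 fold change of -0.48 (95% interval -1.25 to 0.29) did not pass the test (adjusted p = 0.291, edgeR). In each set the LPS library was the lower one, at log2 ratios of -0.30, -0.35, and -1.06, and with the sets as a block the adjusted p was 0.00566 at a log2 fold change of -0.54, short of 1.5-fold.

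St3gal4 and St3gal6 sialylate the lactosamine ends of glycans, including precursors of selectin ligands. St3gal4 stood at 19.7, 19.8, and 14.1 CPM with PBS and at 35.4, 41.7, and 60.4 CPM with LPS. All LPS libraries were higher, and the log2 fold change was 1.36 (SE 0.29, adjusted p = 0.00295, edgeR). Its within-set log2 ratios were 0.85, 1.07, and 2.10, the highest in set 3. St3gal6 was expressed at a low level, with 1.005, 1.33, and 0.675 CPM with PBS (20 to 38 reads per library) and 3.22, 2.95, and 3.25 CPM with LPS (53 to 66 reads). Its groups did not overlap, at a log2 fold change of 1.64 (SE 0.27, adjusted p = 0.000487, edgeR) and 1.68, 1.15, and 2.27 within the sets. On the opposite strand, exons of Dcbld2 cover 26.0% of the exon bases of St3gal6, and Dcbld2 itself went from between 11.5 and 18.3 CPM with PBS to between 109 and 136 CPM with LPS. The libraries were stranded, but whether the counting used the strand is not given in the sources used here, so the St3gal6 values are uncertain to that extent. For St3gal4, 14.1% of exon bases overlap 4930581F22Rik, which reached at most 6.86 CPM in any library.

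St6gal1 is the main enzyme that adds sialic acid in α2,6 linkage, to the galactose ends of N-glycans, whereas the St3gal enzymes form α2,3 linkages. Its level was 67.0, 79.7, and 40.7 CPM with PBS and 9.96, 7.41, and 8.23 CPM with LPS. The lowest PBS library was thus well above the highest LPS library. St6gal1 fell by 2.87 on the log2 scale (SE 0.23, adjusted p = 4.77e-06, edgeR), the largest change among the 10 members in this comparison. Within the sets the log2 ratios were -2.75, -3.43, and -2.31, and leaving out any 1 library kept the value between -3.10 and -2.66.

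Neu1, the lysosomal sialidase, stayed between 72.9 and 98.9 CPM in all 12 libraries. It was measured at 95.2, 98.9, and 96.8 CPM with PBS and at 77.3, 81.8, and 72.9 CPM with LPS. The libraries did not overlap and the test was passed (log2 fold change -0.33, SE 0.10, adjusted p = 0.0196, edgeR), but the change was 1.25-fold and hence below the 1.5-fold minimum. Neu3, the sialidase of the plasma membrane that acts on gangliosides, was low, at 1.64, 1.47, and 0.607 CPM with PBS and 1.56, 1.55, and 1.35 CPM with LPS (18 to 57 and 22 to 32 reads). The groups overlapped, and its log2 fold change of 0.26 (95% interval -0.54 to 1.07) did not pass the test (adjusted p = 0.601, edgeR) and became -0.39 with total counts. Slc17a5 was measured at 60.5, 69.3, and 39.6 CPM with PBS and at 27.5, 28.6, and 23.0 CPM with LPS. Its groups were apart, and it fell by 1.10 on the log2 scale (SE 0.25, adjusted p = 0.00381, edgeR), with -1.14, -1.28, and -0.79 within the sets. Without library set 1 or 2 its adjusted p was 0.0597 or 0.0614, at log2 fold changes of -1.08 and -0.99. For Slc17a5, 6.21% of the 50-base words of its transcripts also occur in other genes, Gm17131 among them.

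The order of the members was compared per length, as CPM per kb of exon. With PBS, Neu1 had the highest level (26.0 CPM per kb), followed by Slc17a5 (15.6), Cmas (13.8), St6gal1 (12.7), and St3gal1 (10.2), whose ranges over libraries overlapped from each to the next. St3gal4 (6.11), St3gal2 (3.69), and Gne (2.49) each lay apart from their neighbours, whereas Neu3 (0.371) and St3gal6 (0.163) overlapped. With LPS, St3gal1 was first at 29.4 CPM per kb, then came Neu1 at 20.7 and St3gal4 at 15.7, which overlapped, and St6gal1 had moved from 4 to 7 in the order, at 1.74. The summed level of the 4 St3gal members divided by that of St6gal1, a ratio chosen after the values had been seen, was 1.47, 1.23, and 2.47 with PBS and 22.1, 32.6, and 30.4 with LPS. It was 1.23, 1.10, and 1.75 with 3′SL and 16.6, 21.8, and 23.2 with LPS + 3′SL, so every LPS library was far above every library without LPS. The sum leaves out St3gal3 and St3gal5, which are not members. Their mean levels were 4.35 and 60.4 CPM per kb with PBS and 18.5 and 55.4 with LPS. With PBS the summed members lay between 19.9 and 20.4 CPM per kb, so the ratio does not stand for the whole St3gal family.

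**Figure D3:**
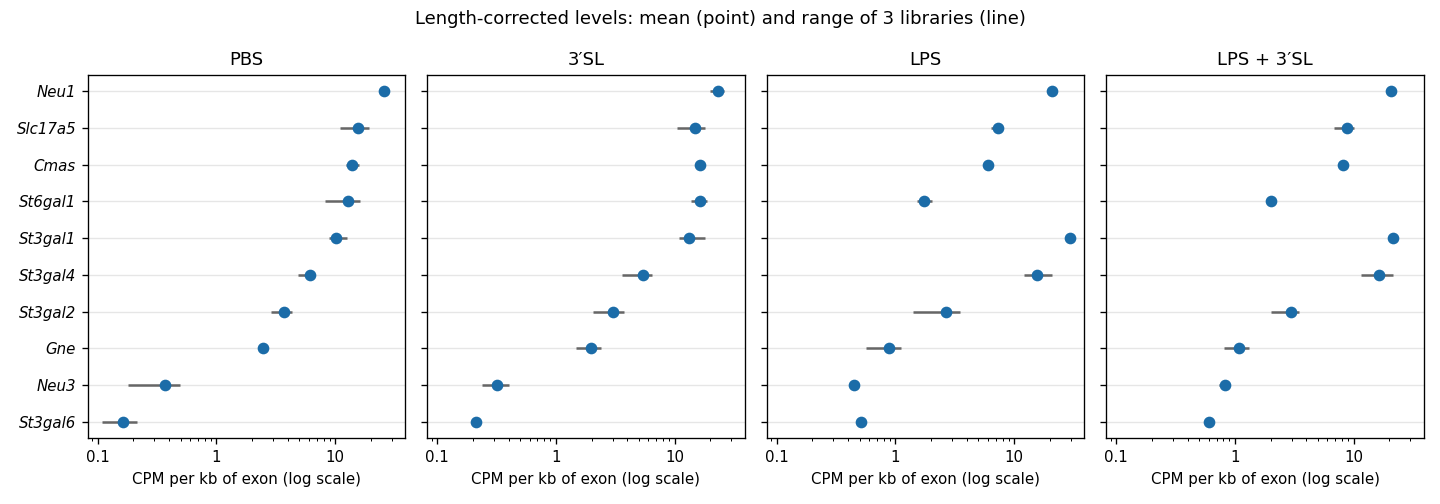
Level of the 10 genes as CPM per kb of exon on a log axis, as the mean and range of 3 libraries, in each condition. St6gal1 lies at 12.7 and 16.5 CPM per kb without LPS and at 1.74 and 2.02 with LPS, while St3gal1 goes from 10.2 and 13.2 to 29.4 and 21.4.

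The same LPS comparison could be made in the presence of 3′SL, with the other 6 libraries, although both comparisons share 1 estimate of the spread. LPS + 3′SL against 3′SL again gave higher St3gal1, St3gal4, and St3gal6 and lower St6gal1, Gne, Cmas, and Slc17a5, and here Neu3 also passed. Thus, 8 of the 10 members were called, 4 higher and 4 lower, beside 29.2% of all genes tested (14.3% higher and 14.8% lower). The median log2 fold change was -0.09 over the members and -0.07 over all genes (-0.54 with total counts). With total counts 7 members passed, beside 43.4% of all genes, with Neu1 in addition and without St3gal1 and Neu3.

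St6gal1 stood at 83.9, 91.8, and 66.9 CPM with 3′SL and at 10.3, 9.70, and 9.81 CPM with LPS + 3′SL, without overlap. Its fold change was 8.13 (log2 -3.02, SE 0.23, adjusted p = 6.86e-06, edgeR), and it was -3.02, -3.24, and -2.77 within the sets on the log2 scale. St3gal4 went from 18.0, 18.7, and 10.5 CPM to 33.6, 48.0, and 62.0 CPM, by 3.04-fold (adjusted p = 0.00151). As with LPS alone, its within-set log2 ratio was highest in set 3 (0.90, 1.36, and 2.56). St3gal6 was measured at 1.27, 1.43, and 1.23 CPM with 3′SL and at 3.49, 4.14, and 3.48 CPM with LPS + 3′SL. This was a 2.82-fold rise with separate groups (adjusted p = 0.0012), at 1.47, 1.53, and 1.499 within the sets, and Dcbld2 lay between 13.3 and 20.7 CPM and between 70.2 and 79.6 CPM in the same groups. Cmas decreased from 72.8, 74.1, and 84.9 CPM to 36.9, 39.6, and 37.8 CPM, or 2.03-fold (adjusted p = 3.5e-05), and its log2 ratios of -0.98, -0.90, and -1.17 within the sets were alike. These 4 calls held in each fit that left out 1 library.

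For the other 4 calls the margin was smaller. St3gal1 had 75.2, 74.0, and 123 CPM with 3′SL and 132, 153, and 154 CPM with LPS + 3′SL, a log2 fold change of 0.69 (SE 0.20, adjusted p = 0.0196, edgeR) with within-set values of 0.82, 1.05, and 0.33. It was not called without 3′SL library 1 or 2 or LPS + 3′SL library 2 or 3 (adjusted p up to 0.0785), or when only these 2 groups were fitted (adjusted p = 0.051), and total counts gave 0.23 (adjusted p = 0.285). Gne went from 13.5, 15.2, and 9.30 CPM to 8.40, 7.17, and 5.15 CPM (log2 fold change -0.87, SE 0.27, adjusted p = 0.0263, edgeR), with -0.68, -1.08, and -0.85 within the sets. Slc17a5 went from 57.2, 65.4, and 37.8 CPM to 36.2, 34.7, and 24.9 CPM (log2 fold change -0.74, SE 0.24, adjusted p = 0.0347, edgeR), with -0.66, -0.92, and -0.60 within the sets. In both genes all LPS + 3′SL libraries were below all 3′SL libraries, and both calls were lost without the same 4 libraries as for St3gal1, with adjusted p up to 0.0994 for Gne and 0.135 for Slc17a5. When only these 2 groups were fitted, Slc17a5 had an adjusted p of 0.0546. Without library set 1 or 2, none of the 3 was called (adjusted p from 0.123 to 0.25).

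Neu3 was at 1.34, 1.07, and 0.795 CPM with 3′SL and at 2.86, 2.44, and 2.95 CPM with LPS + 3′SL (20 to 36 and 53 to 59 reads). All libraries with LPS + 3′SL were higher, by 2.56-fold (log2 1.36, SE 0.37, adjusted p = 0.0143, edgeR), and the within-set values were 1.10, 1.18, and 1.89. With total counts the value was 0.86 (adjusted p = 0.0988), and without library set 1 or 2 it was 1.52 or 1.44 (adjusted p = 0.0754 or 0.146). Neu1 lay between 74.2 and 96.5 CPM with 3′SL and between 76.7 and 78.3 CPM with LPS + 3′SL, and its log2 fold change was -0.17 (95% interval -0.39 to 0.05). St3gal2 lay between 10.4 and 18.9 CPM and between 10.1 and 17.6 CPM, with a log2 fold change of -0.01 (95% interval -0.77 to 0.76). Neither passed the test (adjusted p = 0.216 and 0.993, edgeR).

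Next, the effect of 3′SL itself was compared, without LPS (3′SL against PBS) and with it (LPS + 3′SL against LPS). None of the 10 members was called in either comparison, and neither was any other gene in edgeR's test (0.0% of 14308 genes in both). The counts at an unadjusted p under 0.05 were 1439 and 995 genes (10.1% and 6.95%), among them 1 and 3 members. DESeq2 called 88 and 113 genes (0.615% and 0.79%), and with the library sets as a block 406 and 207 genes were called (2.84% and 1.45%), with 0 members in each.

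**Figure D4:**
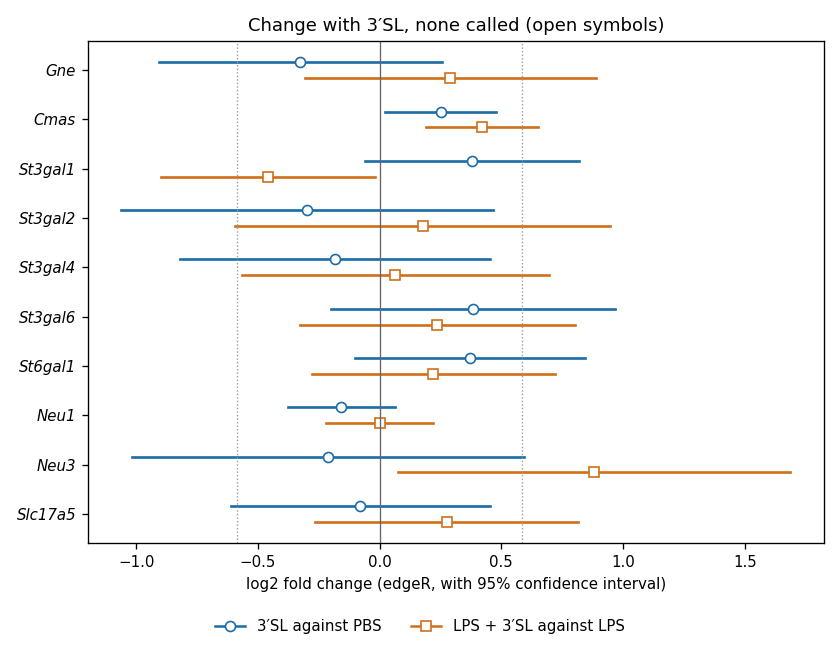
Log2 fold change of the 10 genes with 3′SL, without LPS and in the presence of LPS, with 95% confidence intervals from the edgeR fit and dotted lines at 1.5-fold. No gene was called, the interval of Neu3 with LPS reaches 1.69, and that of Cmas lies above 0 in both comparisons.

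Without LPS, the member with the lowest p was Cmas, at 72.8, 74.1, and 84.9 CPM with 3′SL beside 58.1, 62.5, and 74.3 CPM with PBS. These libraries overlapped, although in each set the 3′SL library was the higher one (log2 ratios 0.32, 0.25, and 0.19), and the log2 fold change was 0.25 (95% interval 0.02 to 0.48, adjusted p = 0.47, edgeR). St3gal1 differed by 0.38 (95% interval -0.06 to 0.82) and St6gal1 by 0.37 (95% interval -0.10 to 0.85), both higher with 3′SL in all 3 sets but overlapping between the groups. The estimates of the other 7 members lay between -0.33 (Gne) and 0.38 (St3gal6), and 0 of 10 members had separate groups, against 17.5% of all genes.

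With LPS, 4 of the 10 members had groups that did not overlap, which held for 12.7% of all genes. Cmas was at 36.9, 39.6, and 37.8 CPM with LPS + 3′SL and at 28.0, 28.2, and 29.2 CPM with LPS, 1.34-fold higher (log2 0.42, 95% interval 0.19 to 0.65). The within-set log2 ratios were 0.40, 0.49, and 0.37, and the adjusted p was 0.236 in edgeR's main fit and 0.0284 with the sets as a block. Its level thus stood between that with LPS and that with PBS, and the change remained under 1.5-fold. St3gal1 was at 132, 153, and 154 CPM beside 196, 215, and 193 CPM, 1.37-fold lower (log2 -0.46, 95% interval -0.90 to -0.02), with -0.57, -0.49, and -0.33 within the sets. Its adjusted p was 0.691 (edgeR) and 0.128 with the block. Neu3 was at 2.86, 2.44, and 2.95 CPM beside 1.56, 1.55, and 1.35 CPM, 1.84-fold higher (log2 0.88, 95% interval 0.08 to 1.69), with 0.87, 0.65, and 1.13 within the sets and an adjusted p of 0.657 (0.191 with the block). The rest of these 4, St3gal6, was 1.18-fold higher (95% interval of the log2 value -0.33 to 0.80) at an adjusted p of 1.0 (edgeR). For St6gal1, which stood at 7.41 to 9.96 CPM with LPS and at 9.70 to 10.3 CPM with LPS + 3′SL, the log2 difference was 0.22 (95% interval -0.28 to 0.72). Gne, Slc17a5, St3gal2, and St3gal4 had estimates between 0.06 and 0.29, with intervals that included 0, and Neu1 one of -0.0001 (95% interval -0.22 to 0.22).

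Whether LPS acted differently in the presence of 3′SL was tested as an interaction of both treatments. It was called for 0 of the 10 members and for 0 of 14308 genes (0.0%), with 1 member and 872 genes (6.09%) at an unadjusted p under 0.05, and DESeq2 called 44 genes (0.308%) and the block fit 222 (1.55%), with 0 members. The member was St3gal1, whose LPS response was lower with 3′SL by 0.84 on the log2 scale (95% interval of the interaction -1.46 to -0.21, adjusted p = 0.703, edgeR). The interaction of St3gal1 was -0.87, -0.74, and -0.83 in the 3 sets, with an adjusted p of 0.0645 in the block fit and of 0.0456, at -0.78, without library set 3. For Neu3 the interaction was 1.09 (95% interval -0.05 to 2.23, adjusted p = 0.819, edgeR), with 1.16, 1.11, and 0.74 in the sets. The call of Neu3 with LPS in 1 background only is therefore not a difference between backgrounds that passed a test.

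The other genes of the pathway were taken from a list of 28, of which 16 were tested. The other 12 reached at most 0.276 CPM in any library, and 7 of them had no reads at all, among them Neu2, Neu4, and St6gal2. For Nanp (6 reads over all libraries) and St6galnac1 (0 reads), 50.8% and 34.9% of transcript words, taken as for Slc17a5, also occur in other genes. In the rest of the 12 this share was at most 0.633%. Reads that did not align uniquely were not among the counts on genes. Whether this lowered the counts of Nanp and St6galnac1 was not tested, so these counts do not show that both genes were silent. LPS against PBS called 4 of the 16, with 1 higher (St3gal3) and 3 lower (Nans, Slc35a1, and St6galnac6), beside 38.5% of all genes. LPS + 3′SL against 3′SL called 3, with St3gal3 higher and Nans and St8sia4 lower, beside 29.2% of all genes. The median log2 fold changes of the 16 were -0.13 and -0.28. With total counts, a scaling that lowered the median of all genes, 10 and 8 of them were called, beside 57.3% and 43.4% of all genes. Against PBS this added Casd1, Nagk, Renbp, Siae, St3gal5, and St6galnac4, and against 3′SL it added Casd1, Cmah, Slc35a1, St3gal5, and St6galnac6.

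**Figure D5:**
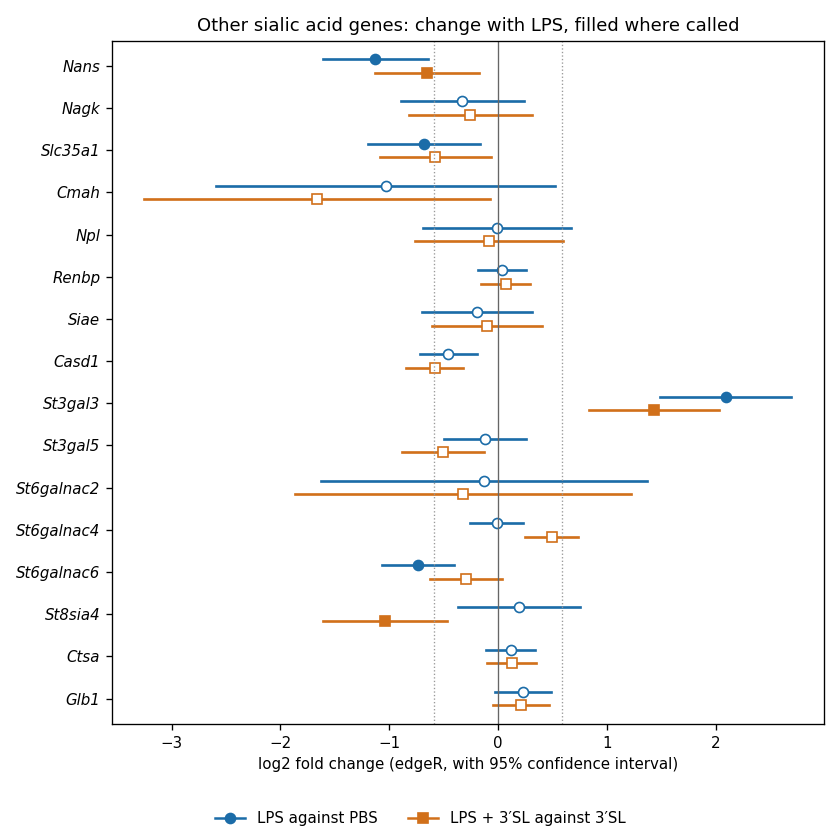
Log2 fold change with LPS of the 16 other sialic acid genes tested, without and with 3′SL, with 95% confidence intervals from the edgeR fit, filled symbols for genes called, and dotted lines at 1.5-fold. St3gal3 lies at 2.09 and 1.43, and all 4 synthesis and transport genes at the top have estimates below 0.

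St3gal3 sialylates N-glycans with the same linkage as the St3gal members. It was measured at 12.5, 13.0, and 10.6 CPM with PBS and at 55.0, 64.5, and 34.3 CPM with LPS. All LPS libraries were above all PBS libraries, by 4.25-fold (log2 2.09, SE 0.27, adjusted p = 0.000116, edgeR). With 3′SL it was at 11.3, 11.8, and 7.83 CPM and with LPS + 3′SL at 28.0, 35.9, and 19.8 CPM, 2.70-fold higher (adjusted p = 0.00184). Its level with LPS + 3′SL was below that with LPS in all 3 sets (log2 ratios -0.97, -0.84, and -0.79), but the groups overlapped, and the log2 difference of -0.88 had an adjusted p of 0.389 (edgeR). The block fit called this difference (adjusted p = 0.00364), as did the fit without library set 3 (adjusted p = 0.0253).

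Among the 4 tested genes of synthesis and transport, all estimates with LPS were below 0, and 2 were called against PBS and 1 against 3′SL. Nans, which condenses the sialic acid backbone, went from 64.7, 60.8, and 51.0 CPM with PBS to 30.9, 31.4, and 18.4 CPM with LPS, by 2.18-fold (log2 -1.13, SE 0.22, adjusted p = 0.00152, edgeR), without overlap. In the presence of 3′SL it went from 54.2, 55.1, and 39.9 CPM to 33.9, 35.6, and 25.4 CPM (log2 -0.65, adjusted p = 0.0356), a call lost without LPS + 3′SL library 1 or 3, 3′SL library 1 or 2, or PBS library 2 (adjusted p up to 0.131), and without library set 1 or 2 (adjusted p = 0.186 or 0.199). For Nans, 29.6% of exon bases overlap Trim14 on the opposite strand. Slc35a1, the Golgi transporter of CMP-sialic acid, went from 11.2, 13.4, and 12.0 CPM to 9.28, 8.48, and 5.03 CPM with LPS (log2 -0.68, SE 0.23, adjusted p = 0.0331, edgeR), with -0.27, -0.66, and -1.25 within the sets. Its groups did not overlap, yet the call was lost without any 1 of the PBS libraries or LPS library 3, with adjusted p up to 0.101, when only these 2 groups were fitted (adjusted p = 0.0607), and without any 1 of the library sets (adjusted p from 0.0664 to 0.187). In the presence of 3′SL, Slc35a1 was not called in edgeR's main fit. Its log2 fold change there ran from -0.73 to -0.47 without 1 library (adjusted p from 0.0299 to 0.224, edgeR), and it was called without library set 3. The interaction of Slc35a1 had an adjusted p of at least 0.861 in the fits without 1 library. Cmah, which hydroxylates CMP-sialic acid and was at most 5.66 CPM, had log2 fold changes of -1.03 and -1.66 that did not pass (adjusted p = 0.26 and 0.0961, edgeR) and that passed with the sets as a block (adjusted p = 0.0324 and 0.00719). The latter also passed without LPS + 3′SL library 1 (-2.40), 3′SL library 3 (-2.11), or library set 3 (-1.81). Nagk, a kinase of amino sugars, was not called with TMM factors.

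None of the 4 breakdown and modification genes (Npl, Renbp, Siae, and Casd1) was called in edgeR's main fit. With total counts Renbp, Siae, and Casd1 were called for LPS against PBS, at log2 fold changes of -0.61, -0.83, and -1.11, and the value of Renbp had turned from 0.035. Casd1, which O-acetylates sialic acid, came nearest, at 34.4, 36.8, and 37.6 CPM with PBS and 27.9, 23.1, and 28.2 CPM with LPS (log2 -0.46, adjusted p = 0.0086, edgeR). Its change with LPS in the presence of 3′SL was -0.58 (adjusted p = 0.00288), just below 1.5-fold. It was called there with total counts (-1.07), under a stricter filter of 10 counts per library or more (-0.60), and without 3′SL library 1 or 2 or LPS + 3′SL library 3 (-0.64, -0.60, and -0.66). Ctsa and Glb1, the lysosomal partners of Neu1, were abundant (at least 982 and 132 CPM) and were not called, with log2 fold changes of 0.11 and 0.23 for LPS against PBS. With total counts these values turned to -0.54 (adjusted p = 0.00213) and -0.42 (adjusted p = 0.061), so their direction depended on the scaling.

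St6galnac6, which acts on gangliosides, was lower with LPS, at 22.8, 21.7, and 16.6 CPM against 38.1, 35.2, and 28.5 CPM with PBS (log2 -0.73, SE 0.15, adjusted p = 0.00225, edgeR), without overlap. Without library set 2 this call was lost (adjusted p = 0.0589). In the presence of 3′SL the value was -0.29 (adjusted p = 0.156). St8sia4, a polysialyltransferase, overlapped between LPS (64.5, 81.3, and 69.4 CPM) and PBS (59.8, 86.3, and 42.1 CPM). It went from 62.6, 107, and 65.2 CPM with 3′SL to 37.4, 39.5, and 36.9 CPM with LPS + 3′SL, by 2.06-fold (log2 -1.04, adjusted p = 0.00887, edgeR), a call lost without library set 1 (adjusted p = 0.0602). Against LPS alone, LPS + 3′SL gave 1.89-fold lower St8sia4 with no overlap and log2 ratios of -0.79, -1.04, and -0.91 within the sets. That difference had an adjusted p of 0.325 in edgeR's main fit, 0.05 in DESeq2 (just under the threshold), and 0.0143 in the block fit, and the interaction of -1.24 had one of 0.646 (0.14 in DESeq2 and 0.0232 in the block fit). St3gal5, which makes the ganglioside GM3, was the most abundant of the 6 tested other sialyltransferases (100 to 199 CPM over all libraries). St6galnac2 was the least (at most 0.631 CPM). Neither was called in edgeR's main fit, and neither was St6galnac4. For LPS + 3′SL against 3′SL, however, St3gal5 and St6galnac4 passed the adjusted p and fell short of 1.5-fold. Without 1 library their log2 fold changes there ran from -0.62 to -0.42 and from 0.39 to 0.55. St3gal5 was called without LPS + 3′SL library 2.

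Last, the genes with the pattern most like the 2 members with the largest change were sought over the 12 libraries by Pearson's r of log2 CPM. These were Ncapg2 (r = 0.994), Lrp6 (0.990), and Lonrf3 (0.989) for St6gal1, and Smu1 (0.986), Dpysl2 (0.981), and Arl6ip1 (0.981) for St3gal6. Ncapg2, a condensin subunit, lay between 50.6 and 93.4 CPM without LPS and between 8.78 and 13.6 CPM with LPS, close to the levels of St6gal1. Dpysl2 went from between 24.5 and 43.3 CPM to between 106 and 135 CPM. These values are a description, since the libraries fall into those with and without LPS and share their library sets, and 314 genes for St6gal1 and 82 for St3gal6 had r above 0.95.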

How the data were processed

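RNA-Seq libraries of BMDMs were prepared with a stranded kit from polyadenylated RNA. The tables the authors deposited hold raw counts of reads by gene, 1 table a library, with no normalization, and per the labels their processing tools were FastQC, Trimmomatic, STAR, HTSeq, and DESeq2. Versions, genome build, annotation, and the strand setting of the counting are not given in the sources used here. Reads on no feature or ambiguous between genes, 8.99% to 11.3% of uniquely aligned reads per library, stayed out of library sizes and tests. Identifiers of 42462 of 43626 genes matched GENCODE M21 (GRCm38), which gave names, positions, and exon lengths.

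All tests except DESeq2's Wald test used edgeR 4.0.16 (R 4.3.3). After filterByExpr and TMM scaling (factors 0.700 to 1.30), all 12 libraries entered 1 quasi-likelihood fit with a coefficient for each condition. Every library with LPS had a lower TMM factor than every library without LPS, so scaling and LPS treatment go together in these data. Benjamini-Hochberg adjustment covered 14308 genes, and calls needed an adjusted p below 0.05 plus a 1.5-fold change or more. Levels are CPM of TMM-scaled sizes, SEs and 95% intervals come from the fit, and within-set values are log2 ratios of 2 libraries, which carry no error. Groups came from the labels. No 2 libraries of a condition agreed within sampling noise (the lowest chi-square per gene was 14.9), so none was taken for a library deposited more than once, which does not show separate cultures. The library sets were found by clustering residuals, and the labels do not say what they are. The fit was tested on simulated data, which were drawn without library sets, so that test does not cover their effect. The alternatives were other scalings, filters, and thresholds, DESeq2 1.42.0 (Wald test), library sets as a block, only the groups compared, and each library left out. Leaving out a whole library set was added after the data had been seen.

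The members and the gene lists were chosen with earlier results of these data known. Named are all members, each other sialic acid gene called in any comparison, and the 3 genes most like the 2 members with the largest change with LPS. Genes named beyond this rule (such as Casd1, Cmah, and Dcbld2) were chosen after their values were seen. A further list of markers of other cells is not reported here. Protein sequences were not used here, and promoter windows came from RefSeq.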

Additional observations from a re-analysis of the deposited data

How the results depend on the processing

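St3gal4, St3gal6, St6gal1, and Cmas kept their direction and their calls in both LPS comparisons under all alternatives. The block of library sets changed no count of called members (7, 8, 0, 0, and 0 in the 5 comparisons). With this block, genes called went from 0 to 406 for 3′SL against PBS, 207 for LPS + 3′SL against LPS, and 222 for the interaction (365, 218, and 136 with total counts too), with 2 other sialic acid genes called for LPS + 3′SL against LPS under both and 1 or 2 for the interaction. DESeq2 called 88, 113, and 44 genes and 1 other sialic acid gene for LPS + 3′SL against LPS. At an unadjusted p under 0.05 together with 1.5-fold or more, the counts were 620, 402, and 567 genes, with 1 member and 2 other sialic acid genes for LPS + 3′SL against LPS and 1 and 1 for the interaction. In LPS + 3′SL against LPS, DESeq2's size factors or total counts called 1 gene, all genes with at least 1 count called 2, and leaving out 1 library 0 to 8. Block and total counts together called 9098 genes for LPS against PBS and 7422 for LPS + 3′SL against 3′SL, with 12 and 9 other sialic acid genes (10 and 8 with total counts alone), and no fold minimum gave 6 in the latter.

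Leaving out 1 library gave 5 to 8 members called for LPS + 3′SL against 3′SL, beside 23.3% to 29.9% of all genes. Without library set 2, 3516 genes (24.4%) and 2 other sialic acid genes were called for LPS against PBS and 2183 genes (15.1%) and 4 members for LPS + 3′SL against 3′SL, where the absence of set 1 left 4 members and 1 other sialic acid gene, beside 20.6% of all genes. Without set 3, 87, 149, and 44 genes (0.604%, 1.04%, and 0.306%) were called for both 3′SL comparisons and the interaction, with 1 other sialic acid gene for LPS + 3′SL against LPS, 1 member (St3gal1) for the interaction, and 5 other sialic acid genes for LPS + 3′SL against 3′SL, beside 30.4%. In these fits 2 libraries stood for a group, so fewer samples entered.

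Among the members and the other genes whose values are given, those whose log2 fold change turned sign were not called in that comparison with TMM factors. With total counts alone and with the block too, Renbp became -0.61 and -0.63 against PBS (called in both) and -0.41 and -0.41 against 3′SL, Ctsa -0.54 and -0.54 and then -0.36 and -0.36, and Glb1 -0.42 and -0.42 and then -0.27 and -0.27. Siae ran from -0.24 to 0.031 against 3′SL without 1 library. With LPS against PBS, Neu3 became -0.39 and St8sia4 -0.46 with total counts (-0.34 and -0.42 with the block too), and without 1 library they ran from -0.063 to 0.52 and from -0.026 to 0.49. With LPS + 3′SL against 3′SL, St3gal2 became 0.038 with DESeq2 or its size factors, 0.0015 with all genes, and 0.064 and 0.042 without set 1 or 3 (-0.19 to 0.22 without 1 library). With 3′SL against PBS, Slc35a1 became 0.045 without set 3 and St6galnac6 0.012 without set 2, and without 1 library the ranges were -0.33 to 0.0064 (St3gal4), -0.54 to 0.043 (Neu3), -0.28 to 0.094 (Slc17a5), -0.16 to 0.043 (Slc35a1), and -0.15 to 0.052 (St6galnac6). With LPS + 3′SL against LPS, Neu1 became 0.0017 with the block, 0.087 with total counts (0.089 with both), 0.011 with all genes, and 0.014 with only the groups compared. It was 0.0034 and 0.033 without set 1 or 2 (-0.039 to 0.044 without 1 library). Without set 2 St3gal4 became -0.0019, and without set 3 Slc35a1 became -0.090. Without 1 library the ranges were -0.12 to 0.43 (St3gal2), -0.16 to 0.32 (St3gal4), and -0.17 to 0.22 (Slc35a1). In the interaction, St3gal6 became 0.036 and St6gal1 0.014 with total counts, and St3gal6 0.12 and Slc35a1 -0.13 without set 3, with ranges without 1 library of -0.39 to 0.073, -0.36 to 0.081, and -0.12 to 0.27 for St3gal6, St6gal1, and Slc35a1. Where no construction of the fit shows it, the cause was not tested. For St3gal6 and Neu3, depth (at most 90 reads per library) limits what can be seen.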
